A study of Mus musculus with 12 samples.

Results

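Mesothelium is the flat epithelium that covers the outer surface of abdominal and pelvic organs, and a set of genes that mark it was followed through the uterus and vas deferens of mice with mutated Hox genes. Of 8 names in the set 7 matched a gene in the deposited values: Msln, Upk3b, Upk1b, Wt1, Lrrn4, Muc16 and Gpm6a. The name Rspo1-none matched no row, and Rspo1 itself is described with a wider list below. The 7 genes were among 31618 genes with values in the female and 31669 in the male libraries, and all 7 were measured in both. They were selected on their measured differences from wild type (WT), which earlier results of these data had shown to run in opposite directions in uterus and vas deferens of the mutants, so those differences are given as a description, without a test.

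The study made 12 RNA-seq libraries from reproductive tracts of CD1/129 mice aged 3 to 7 months, each from RNA pooled from 3 animals, to describe the molecular effects of mutating Hox9 to Hox11 genes of the Hoxa and Hoxd clusters. The uterus and the vas deferens were each sampled in 5 genotypes. These were WT, Hoxa9,10,11-/- (written Hoxa-/- below), Hoxd9,10,11-/- (Hoxd-/-) and 2 compound genotypes. The compound genotypes were Hoxa9,10,11-/-d9,10,11+/- (Hoxa-/-d+/-, with 1 mutant Hoxd copy) and Hoxa9,10,11+/-d9,10,11-/- (Hoxa+/-d-/-, with 1 mutant Hoxa copy). The WT oviduct and the WT caudal epididymis were also sampled, and females were in diestrus. The labels do not describe the alleles further. With 1 library per tissue and genotype there is no replicate, no error between animals and no test, and every difference below compares 2 libraries.

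The deposited values are on a log2 scale on which the median of every gene is 0 across the 6 libraries of a sex. A value of 1 thus means 2 times the gene's own median in that set, levels of different genes or sexes cannot be compared, and each difference is between libraries of the same sex. A difference of at least 2-fold, 1 on the log2 scale, is called higher or lower, and beside the first count in each comparison stands the share of all measured genes called the same way (of 16953 female and 17142 male ones). In whole organs, fewer mesothelial cells and less RNA per cell cannot be told apart. Relative depth, read from the step that 1 read makes in the low values, spanned 1.34-fold among the female and 1.92-fold among the male libraries, where the Hoxa+/-d-/- vas deferens and the epididymis were shallowest at 0.545 and 0.521 of the WT vas deferens.

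Mesothelial cells form a slippery, non-adhesive surface and keep features of both epithelium and mesenchyme. Msln encodes mesothelin, a surface protein held by a lipid anchor, and Muc16 encodes the large membrane mucin that carries the CA125 antigen, which human mesothelin binds. Upk3b and Upk1b encode uroplakins, membrane proteins first known from the urothelium that lines the bladder, and Upk1b belongs to the tetraspanins. Lrrn4 and Gpm6a encode membrane proteins, a leucine-rich repeat protein and a relative of the myelin proteolipid, which are also expressed in the nervous system. Wt1 encodes a zinc finger transcription factor that mesothelium needs and that is also made in gonads and in uterine stroma. The 7 genes lie at separate places: Msln (Gene ID 56047) starts at 25885558 on chromosome 17, Upk3b (100647) at 136514366 on chromosome 5, Upk1b (22268) at 38773303 on chromosome 16, Wt1 (22431) at 104966686 and Lrrn4 (320974) at 132694252 on chromosome 2, Muc16 (73732) at 18299899 on chromosome 9 and Gpm6a (234267) at 56040196 on chromosome 8, in the mm9 coordinates of the files.

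Promoters are shown for the 4 genes with an entry in the RefSeq promoter table (GRCm38.p6, 250 bases before to 50 bases after the annotated start). Msln, Upk1b and Wt1 had no entry there and are named only. Capitals mark matches, on either strand, to GGAATG, a motif of the TEAD factors, and to GTGGGNG, the core of the WT1 motif, and the sequences are written on the strand of the gene.
Lrrn4, chr2:132880813-132881112, minus strand: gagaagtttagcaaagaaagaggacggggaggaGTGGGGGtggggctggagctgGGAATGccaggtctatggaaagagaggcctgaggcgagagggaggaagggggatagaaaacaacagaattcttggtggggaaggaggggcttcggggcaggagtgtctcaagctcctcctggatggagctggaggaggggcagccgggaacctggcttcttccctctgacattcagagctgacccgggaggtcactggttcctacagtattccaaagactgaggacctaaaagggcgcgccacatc
Upk3b, chr5:136038246-136038545, plus strand: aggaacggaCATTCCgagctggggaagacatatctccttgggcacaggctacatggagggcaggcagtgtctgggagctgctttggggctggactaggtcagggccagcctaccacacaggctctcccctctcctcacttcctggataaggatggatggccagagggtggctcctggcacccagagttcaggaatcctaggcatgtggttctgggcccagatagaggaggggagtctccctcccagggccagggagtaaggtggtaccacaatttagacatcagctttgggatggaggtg
Gpm6a, chr8:54779184-54779483, plus strand: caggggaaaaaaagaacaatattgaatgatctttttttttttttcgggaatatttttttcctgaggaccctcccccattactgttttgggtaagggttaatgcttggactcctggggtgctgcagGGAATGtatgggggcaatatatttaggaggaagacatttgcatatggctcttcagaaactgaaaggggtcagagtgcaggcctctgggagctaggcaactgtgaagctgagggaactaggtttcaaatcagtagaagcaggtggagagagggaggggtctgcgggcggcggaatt
Muc16, chr9:18674554-18674853, minus strand: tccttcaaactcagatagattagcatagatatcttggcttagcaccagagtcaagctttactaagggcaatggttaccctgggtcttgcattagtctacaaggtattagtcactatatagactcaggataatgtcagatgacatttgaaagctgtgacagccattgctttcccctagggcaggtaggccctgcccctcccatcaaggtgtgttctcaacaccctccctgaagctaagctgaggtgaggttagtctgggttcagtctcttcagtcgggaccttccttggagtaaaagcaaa
Counted in bases from the start, which is 0, the TEAD letters began at -196 in Lrrn4, at -125 in Gpm6a and, on the other strand, at -241 in Upk3b. The WT1 core began at -217 in Lrrn4. Muc16 held none of the motifs searched, nor did a second Gpm6a start at chr8:54954478-54954777. Of 32851 promoters of this length in the table, 14.7% held the TEAD letters and 31.6% the WT1 core. The posterior Hox motifs TTTATGG and TTTACGA, in 2.75% and 0.597% of promoters, were in none of these windows, and the matches do not overlap each other. A match or its absence describes these letters in this window and no binding.

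In the uterus, 6 of the 7 genes had the same order of genotypes: WT and Hoxd-/- were the 2 lowest libraries and the Hoxa-/- and Hoxa-/-d+/- the 2 highest, with the Hoxa+/-d-/- between them. Lrrn4 stood at -1.77 in WT, -1.06 in Hoxd-/-, -0.15 in Hoxa+/-d-/-, 0.15 in Hoxa-/- and 1.20 in Hoxa-/-d+/- uterus. The range of this gene over the 5 uteri was the widest of the 7, and its Hoxa-/-d+/- library lay 7.82-fold above WT. Upk3b stood at -1.33, -1.14, -0.20, 0.20 and 0.88 in the same order of libraries, with the Hoxa-/-d+/- uterus 4.66-fold above WT. Gpm6a stood at -1.04, -0.40, -0.16, 0.16 and 0.83, again with WT lowest.

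Muc16 differed in its extremes, with the Hoxd-/- uterus lowest and the Hoxa-/- uterus highest. Its values were -0.96 in WT, -1.45 in Hoxd-/-, -0.50 in Hoxa+/-d-/-, 0.73 in Hoxa-/- and 0.50 in Hoxa-/-d+/- uterus. Upk1b stood at -0.45, -0.76, -0.09, 0.09 and 0.82 in that order, so that the Hoxd-/- library was again the lowest. Msln stood at -0.76, -0.70, -0.03, 0.03 and 0.19. The mesothelin gene thus kept the shared order, but its highest mutant uterus was 1.93-fold above WT, just short of the call. Wt1 was the exception, at 0.21, -0.03, 0.03, -0.37 and -0.08, with WT the highest uterus and the Hoxa-/- library the lowest.

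Against WT, 5 of the 7 genes rose in the Hoxa-/-d+/- uterus, where 8.59% of all measured genes were called higher. These were Lrrn4 at 2.97, Upk3b at 2.22, Gpm6a at 1.87, Muc16 at 1.46 and Upk1b at 1.27. In the Hoxa-/- uterus 4 rose, Lrrn4 at 1.92, Muc16 at 1.69, Upk3b at 1.53 and Gpm6a at 1.21, beside 6.09% of all genes. The median of the 7 was 1.21 in the Hoxa-/- and 1.46 in the Hoxa-/-d+/- uterus. In the Hoxa+/-d-/- uterus 2 rose, Lrrn4 at 1.62 and Upk3b at 1.14, beside 8.15% of all genes, and the median was 0.74. Another reference was the mean of the uteri with at most 1 mutant copy of the cluster null in the genotype. Against it the 2 calls of the Hoxa+/-d-/- uterus ended, with Lrrn4 at -0.013 and Upk3b at -0.11. The call of Gpm6a in the Hoxa-/- uterus also ended, at 0.70. Against WT the Hoxd-/- uterus had 0 called higher and 0 lower, beside 6.31% and 5.98% of all genes, with values from -0.49 for Muc16 to 0.71 for Lrrn4 and a median of 0.07. With the mean as reference, Muc16 and Upk3b in this library were lower, at -1.54 and -1.06. No share of all genes is given for that reference. None of the 7 was called lower than WT in any mutant uterus, where the shares of all genes called lower were 7.47% in the Hoxa-/-, 7.02% in the Hoxa-/-d+/- and 6.44% in the Hoxa+/-d-/- library. Wt1 had differences of -0.58, -0.24, -0.28 and -0.18 in the Hoxa-/-, Hoxd-/-, Hoxa-/-d+/- and Hoxa+/-d-/- uterus. The median over all measured genes lay between -0.00569 and 0.0201 in each comparison.

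**Figure D1:**
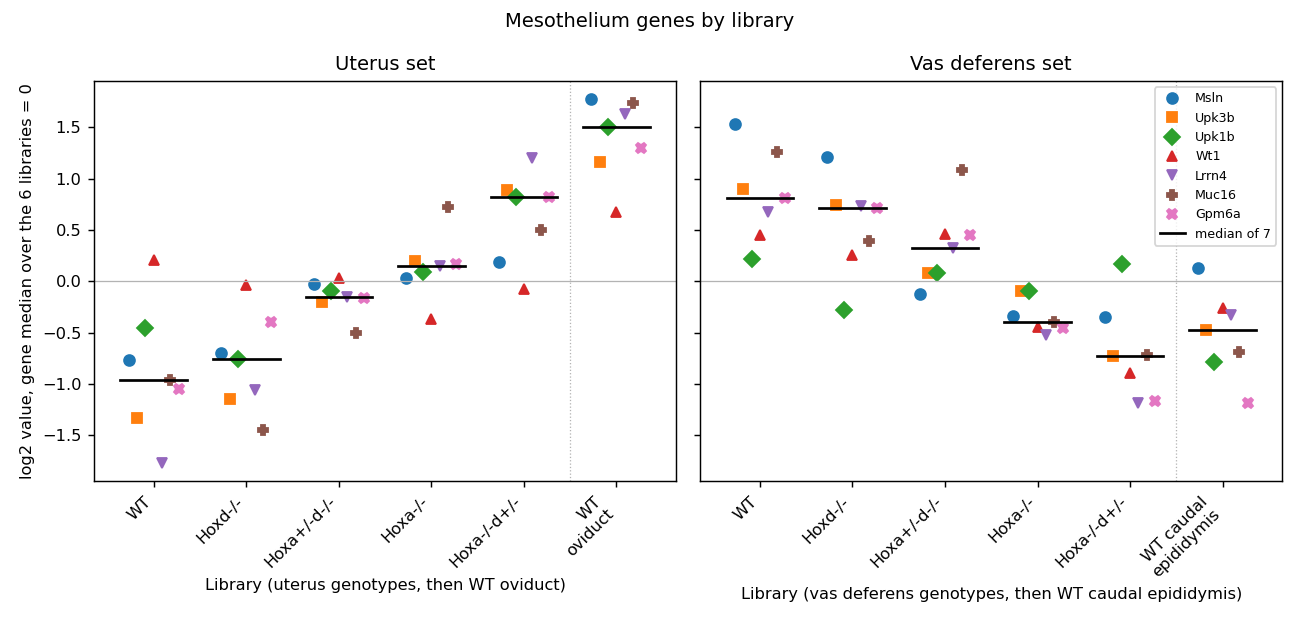
Each point is the log2 value of 1 of the 7 genes in 1 library, with the gene's median over the 6 libraries of that sex set to 0, and the black bars are medians of the 7 genes. In the uterus the bar is lowest in WT at -0.96 and higher in the Hoxa-/-d+/- uterus at 0.82, while in the vas deferens it is highest in WT at 0.82 and lowest in the Hoxa-/-d+/- library at -0.73.

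In the vas deferens the order was turned round, with WT and Hoxd-/- high and both Hoxa-/- genotypes low. Gpm6a stood at 0.82 in WT, 0.72 in Hoxd-/-, 0.45 in Hoxa+/-d-/-, -0.46 in Hoxa-/- and -1.16 in Hoxa-/-d+/- vas deferens. Lrrn4 stood at 0.67, 0.74, 0.33, -0.53 and -1.19 in the same order, and Upk3b at 0.90, 0.74, 0.09, -0.09 and -0.73. These 3 genes and Msln had WT and Hoxd-/- as their 2 highest vasa deferentia. Msln stood at 1.53 in WT, 1.22 in Hoxd-/-, -0.13 in Hoxa+/-d-/-, -0.34 in Hoxa-/- and -0.34 in Hoxa-/-d+/- vas deferens. Its values separated into a high pair and a low group of 3, and for Msln and Upk3b the Hoxa+/-d-/- library lay nearer to the Hoxa-/- than to the Hoxd-/- library.

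Muc16 and Wt1 instead had the Hoxa+/-d-/- library among their highest. Muc16 stood at 1.26 in WT, 0.40 in Hoxd-/-, 1.09 in Hoxa+/-d-/-, -0.40 in Hoxa-/- and -0.71 in Hoxa-/-d+/- vas deferens. Wt1 stood at 0.45, 0.26, 0.46, -0.45 and -0.89 in that order, so the Wt1 gene, unlike in the uterus, followed the others here. Upk1b showed no such order, at 0.21, -0.28, 0.08, -0.09 and 0.17, and its 5 vasa deferentia spanned less than 2-fold.

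Of the 7 genes 6 fell in the Hoxa-/-d+/- vas deferens, where 8.51% of all measured genes were called lower. Gpm6a was at -1.98, Muc16 at -1.97, Msln at -1.87, Lrrn4 at -1.86, Upk3b at -1.63 and Wt1 at -1.34 against WT, while Upk1b was at -0.05. In the Hoxa-/- vas deferens 4 fell, Msln at -1.87, Muc16 at -1.66, Gpm6a at -1.27 and Lrrn4 at -1.20, beside 8.65% of all genes. Upk3b stood just outside the call at 1.99-fold below WT, and Wt1 at -0.90. The medians of the 7 were -1.20 in the Hoxa-/- and -1.86 in the Hoxa-/-d+/- library. In the Hoxa+/-d-/- vas deferens Msln fell, at -1.66, beside 5.47% of all genes, and the others ranged from -0.82 for Upk3b to 0.01 for Wt1. Against the mean of the vasa deferentia with at most 1 mutant Hoxd copy, Msln there was at -0.41 and no longer called. The Hoxd-/- vas deferens had 0 called higher and 0 lower, beside 3.45% and 5.05% of all genes, and its lowest value was -0.86 for Muc16. None of the 7 was called higher than WT in any mutant vas deferens, where 10.9%, 14.1% and 7.77% of all genes were called higher in the Hoxa-/-, Hoxa-/-d+/- and Hoxa+/-d-/- libraries.

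Setting the tissues side by side, 3 of the 7 genes rose in the uterus and fell in the vas deferens of the Hoxa-/- genotype, where 1.06% of the 15900 genes measured in both sets did so. These were Lrrn4, Muc16 and Gpm6a. In the Hoxa-/-d+/- genotype Upk3b, Lrrn4, Muc16 and Gpm6a did so, 4 of 7, beside 1.35% of all genes. In the Hoxd-/- and Hoxa+/-d-/- genotypes 0 of 7 did, beside 0.786% and 0.83%. Counting differences of any size, 6 of 7 lay above WT in the uterus and below it in the vas deferens in the Hoxa-/- genotype, 6 in the Hoxa-/-d+/-, 6 in the Hoxa+/-d-/- and 3 in the Hoxd-/-, beside 26.9%, 24.3%, 24.8% and 28.8% of all genes. Wt1 was the gene outside the 6 in each of those 3 genotypes. The set was chosen for this opposite direction, so these counts describe it and support nothing.

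**Figure D2:**
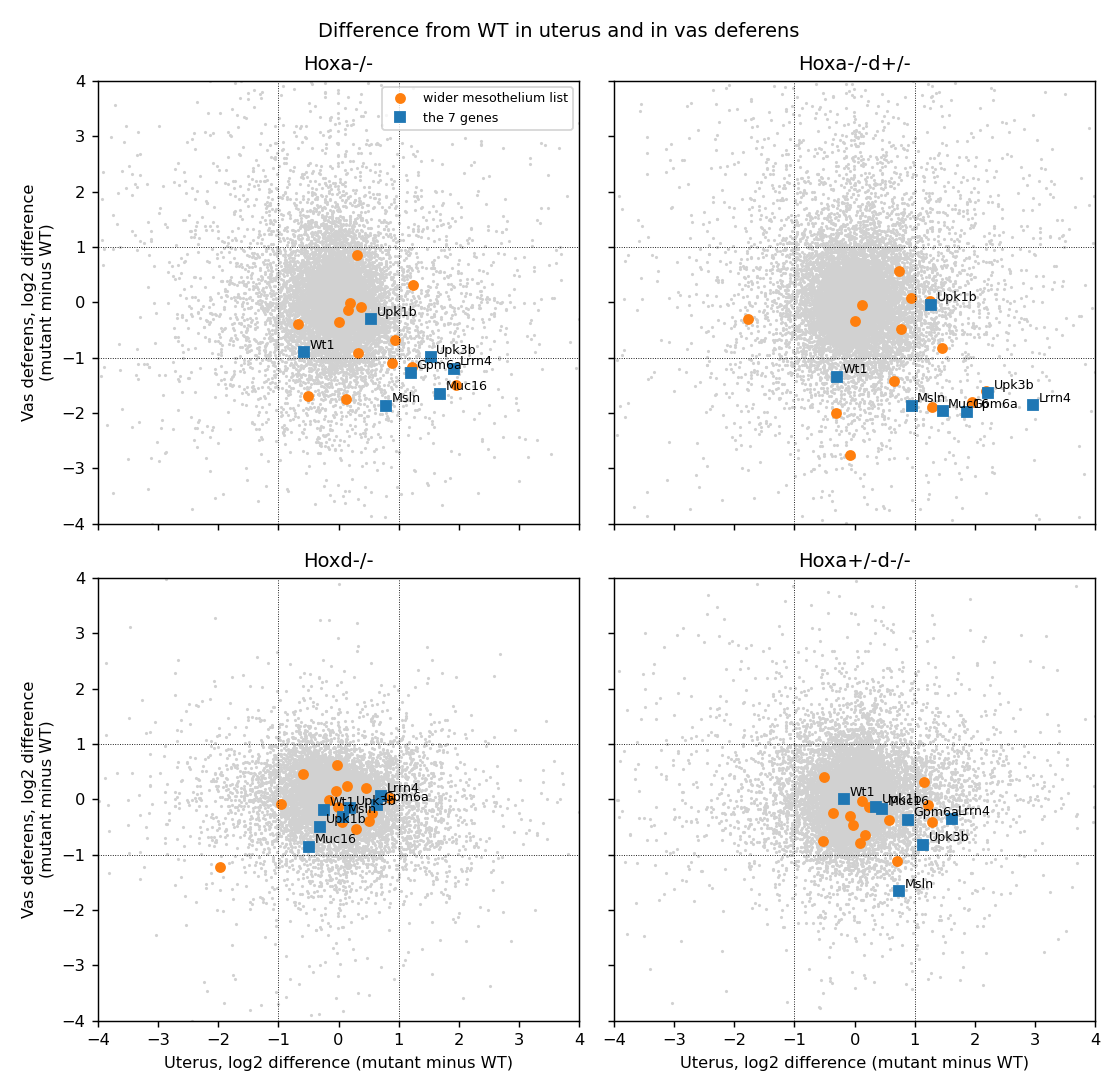
Each panel plots, for 1 mutant genotype, the log2 difference from WT in the uterus (horizontal) against that in the vas deferens (vertical), with the 7 genes as blue squares, the wider mesothelium list as orange circles, the 15900 genes measured in both sets as grey points and dotted lines at 2-fold, and genes beyond 4 on either axis not shown. Lrrn4, Muc16 and Gpm6a lie in the lower right corner in the Hoxa-/- panel and are joined there by Upk3b in the Hoxa-/-d+/- panel, while the Hoxd-/- panel has the 7 genes inside the dotted lines.

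The order of libraries was also counted over all genes, for patterns picked after the values had been seen. WT and Hoxd-/- were the 2 lowest of the 5 uteri for 11.2% of measured genes, against 6 of these 7, and both Hoxa-/- genotypes were the 2 highest for 14.6%, against the same 6. In the vas deferens WT and Hoxd-/- were the 2 highest for 14.9% of genes and for 4 of the 7, and both Hoxa-/- genotypes were the 2 lowest for 21.5% and for 6 of the 7. The 6 of the uterus lacked Wt1 and the 6 of the vas deferens lacked Upk1b.

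In the uterus most of the 7 genes stood higher in a compound genotype than in the matching single one, though few of these differences reached 2-fold. The Hoxa-/-d+/- uterus, with 1 mutant Hoxd copy more than the Hoxa-/-, was higher for Lrrn4 at 1.04, and this was 1 of 7 called, beside 6.79% of all genes. Upk1b, Upk3b, Gpm6a, Wt1 and Msln were at 0.73, 0.69, 0.66, 0.29 and 0.16, and Muc16 at -0.23. The Hoxa-/- uterus was in sequencing lane 1 and the Hoxa-/-d+/- in lane 2, so lane and genotype cannot be told apart in this step. Between the Hoxa+/-d-/- and the Hoxd-/- uterus, which differ by 1 mutant Hoxa copy, 0 of 7 were called higher, beside 5.57% of all genes, but all 7 values lay above 0, from 0.07 for Wt1 to 0.95 for Muc16 and Upk3b.

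In the vas deferens the same step from Hoxa-/- to Hoxa-/-d+/- gave 0 of 7 called lower, beside 2.04% of all genes, with Gpm6a at -0.71, Lrrn4 at -0.66, Upk3b at -0.63 and Msln at -0.00472. From Hoxd-/- to Hoxa+/-d-/-, Msln fell at -1.34, 1 of 7, beside 4.09% of all genes, while Muc16 stood at 0.69 and Upk1b at 0.37. Msln was thus the gene of the 7 with the widest step to the Hoxa+/-d-/- vas deferens and the narrowest to the Hoxa-/-d+/-. The Hoxa+/-d-/- vas deferens was sequenced in another run than the other vasa deferentia, and a part of the run in this step cannot be told apart from genotype.

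The oviduct and the epididymis are the neighbouring segments of the tract and were sampled in WT alone, in run 136, whereas the WT uterus and vas deferens were in run 134, so that run and tissue cannot be told apart. In the oviduct 6 of the 7 genes were higher than in the WT uterus, beside 16.6% of all genes, and the median was 2.49. None was called lower there, beside 11.7% of all genes. Lrrn4 was 10.6-fold higher, Muc16 was at 2.70, Msln at 2.54, Upk3b at 2.49, Gpm6a at 2.34 and Upk1b at 1.95, and Wt1 was at 0.46. The oviduct was the highest female library for each of the 7 genes, with values from 0.67 for Wt1 to 1.77 for Msln. The Hoxa-/-d+/- uterus reached 1.20 for Lrrn4 against 1.63 in the oviduct and 0.88 for Upk3b against 1.16, while for Msln it reached 0.19 against 1.77. The oviduct library also carried markers of ovary: 5 of 8 measured ovary genes were higher than in the WT uterus and 0 lower, with a median of 3.63 and Cyp11a1, the first enzyme of steroid synthesis, at 10.82. The part of ovarian tissue in the oviduct values was not tested, and the ovary is itself covered by an epithelium continuous with mesothelium.

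In the caudal epididymis 4 of the 7 genes were lower than in the WT vas deferens, beside 12.7% of all genes: Gpm6a at -2.00, Muc16 at -1.94, Msln at -1.40 and Upk3b at -1.38. Lrrn4 and Upk1b stood at the edge of the call, at -0.998 and -0.997, and Wt1 at -0.71. None was called higher, beside 16.3% of all genes, and the median of the 7 was -1.38. Gpm6a and Upk1b had their lowest male values in this library, at -1.18 and -0.78, whereas Msln at 0.13 stood above the 3 low mutant vasa deferentia. These comparisons use the same WT libraries as those of the mutants, so a high or low WT library moves both alike.

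A wider list of 16 mesothelium genes gave 15 with values, all measured in both sets; Myrf had no row. In the uterus 3 rose and 1 fell in the Hoxa-/-, 5 rose and 2 fell in the Hoxa-/-d+/-, 3 rose and 1 fell in the Hoxa+/-d-/- and 0 rose and 1 fell in the Hoxd-/- library, with medians of 0.30, 0.73, 0.12 and 0.05. In the vas deferens 0 rose in any mutant, and 5 fell in the Hoxa-/-, 7 in the Hoxa-/-d+/-, 1 in the Hoxa+/-d-/- and 1 in the Hoxd-/- library, with medians of -0.68, -0.83, -0.37 and -0.08. In the oviduct 5 rose and 0 fell, and in the epididymis 0 rose and 6 fell.

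Bnc1, which encodes the zinc finger protein basonuclin 1, ran closest to the 7 genes. It stood at -1.62 in WT, -1.47 in Hoxd-/-, -0.33 in Hoxa+/-d-/-, 0.33 in Hoxa-/-, 0.56 in Hoxa-/-d+/- uterus and 1.5 in the oviduct. The vas deferens values of Bnc1 were 0.89, 1.14, 0.48, -0.61 and -0.72 in the same order of genotypes, and -0.48 in the epididymis. Nkain4, whose product associates with the sodium pump, rose in the Hoxa-/- and Hoxa-/-d+/- uterus at 1.21 and 1.95 and fell in the matching vasa deferentia at -1.17 and -1.81, and it also fell in the Hoxa+/-d-/- vas deferens at -1.11. The tight junction gene Cldn15 rose in the Hoxa-/-d+/- uterus at 1.29, was at 0.88 in the Hoxa-/- uterus, and fell in both vasa deferentia at -1.90 and -1.09. Rspo1, which encodes a secreted enhancer of Wnt signalling, was within 2-fold in every mutant uterus, from -0.01 to 0.65, and fell in the Hoxa-/-d+/- vas deferens at -1.42.

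Other genes of the wider list were called in the mutants of 1 tissue only. Pdpn, the podoplanin gene, rose in the Hoxa-/-, Hoxa-/-d+/- and Hoxa+/-d-/- uterus at 1.23, 1.25 and 1.15, and its 4 vas deferens differences lay between -0.40 and 0.32. Prr15 rose in the Hoxa-/-d+/- uterus at 1.45 and was at 0.93 in the Hoxa-/- and -0.96 in the Hoxd-/- uterus. Prr15 lay below WT in the vas deferens without a call, at -0.69 in Hoxa-/-, -0.08 in Hoxd-/-, -0.83 in Hoxa-/-d+/- and -0.76 in Hoxa+/-d-/-. In the epididymis it was at -1.93. The metal transporter gene Slc39a8 and Sulf1, which encodes a sulfatase acting on heparan sulfate, fell in the Hoxa-/- vas deferens at -1.74 and -1.69 and in the Hoxa-/-d+/- at -2.75 and -1.99, with uterus values from -0.59 to 0.45 in the 4 mutants. Both were in the range of -0.46 to 0.46 in the Hoxd-/- and Hoxa+/-d-/- vas deferens.

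Some genes went against the 7 in the uterus or followed them only in part. Calb2, which encodes calretinin, a protein used to mark mesothelial tumours in human pathology and also made in neurons, fell in every mutant uterus, at -5.04, -1.98, -5.04 and -4.17 in the Hoxa-/-, Hoxd-/-, Hoxa-/-d+/- and Hoxa+/-d-/- library. In the Hoxa-/- uterus Calb2 stood at the floor of 1 normalised read, so that -5.04 there understates the difference, and the Hoxa-/-d+/- uterus held 1 read. In the vas deferens Calb2 fell in the Hoxd-/- and Hoxa-/-d+/- libraries, at -1.23 and -1.18. Aldh1a2, the retinoic acid-synthesising enzyme gene, fell in the Hoxa-/-d+/- uterus at -1.77. C3, the complement gene, rose in the Hoxa+/-d-/- uterus at 1.22, and Krt19, Cd200, Igfbp6 and Efemp1 stayed within 2-fold of WT in all 8 mutant libraries. The common order of genotypes in the uterus (WT and Hoxd-/- lowest) was found for 7 of the 15, and the low position of both Hoxa-/- genotypes in the vas deferens also for 7.

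Markers of other cell types were set beside the 7 genes, and the part of any of these cells in the values of the 7 was not tested. Because levels are lost, no summed level of a list can be given. Of the markers named below, Upk3a in the Hoxa-/-d+/- vas deferens was the 1 that stood at the floor. Urothelium shares the uroplakins with mesothelium. Of 7 listed urothelium genes 4 were measured in the female set. In the Hoxa-/- uterus 3 rose and 1 fell, at -2.63. The higher ones included Krt5, a basal keratin, at 7.30 and the uroplakin gene Upk1a at 5.12. In the Hoxa-/-d+/- uterus 3 rose, among them Krt5 at 5.55, and 1 fell, Krt20, at -4.87. The medians were 4.57 and 3.45. In the Hoxa+/-d-/- uterus 4 of 4 rose, with a median of 1.51, and in the Hoxd-/- uterus 0 rose and 1 fell. In the vas deferens 7 urothelium genes were measured, of which 3 fell and 0 rose in the Hoxa-/- and 3 fell and 2 rose in the Hoxa-/-d+/- library, among the lower ones Upk3a, the uroplakin of bladder urothelium, at -4.02 and -4.90. Upk3a was also low in the Hoxd-/- and Hoxa+/-d-/- vas deferens, at -3.34 and -3.28, where Upk3b was at -0.16 and -0.82.

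Adipocyte genes moved the other way from the 7 in several libraries. Of 10, 8 rose in the Hoxa-/-, 9 in the Hoxa-/-d+/-, 9 in the Hoxa+/-d-/- and 1 in the Hoxd-/- vas deferens, and 0 fell, with medians of 2.14, 2.59, 2.26 and 0.12. In the Hoxa+/-d-/- vas deferens the adipocyte genes were thus as high as in the Hoxa-/-, while the 7 mesothelium genes had a median of -0.34. In the uterus 6 adipocyte genes fell in the Hoxa-/- and 7 in the Hoxa+/-d-/- library, with medians of -1.10 and -2.98. The Hoxa-/-d+/- uterus, where the median of the 7 mesothelium genes was highest of the mutants, had an adipocyte median of 0.02, with 1 higher and 1 lower. In both WT neighbouring segments the adipocyte genes moved in the direction of the 7. The oviduct had 6 adipocyte genes higher, with a median of 1.44, and the epididymis 6 lower and 0 higher, with a median of -1.25.

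Smooth muscle, which forms the wall under the mesothelium, fell together with the 7 genes in the vas deferens. Of 10 smooth muscle genes, 5 fell in the Hoxa-/-, 7 in the Hoxa-/-d+/-, 2 in the Hoxa+/-d-/- and 0 in the Hoxd-/- library, with medians of -1.03, -1.31, -0.26 and 0.17, and 10 fell in the epididymis. Actg2, the enteric smooth muscle actin, was at -1.45 and -1.82 in the Hoxa-/- and Hoxa-/-d+/- vas deferens. In the uterus the smooth muscle medians were 0.11 in the Hoxa-/- and 0.65 in the Hoxa-/-d+/- library, where 3 of 10 rose, and in the oviduct 7 fell while 6 of the 7 mesothelium genes rose.

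Nerve and glial genes, relevant because Lrrn4 and Gpm6a are also neural, fell for 7 of 9 in the Hoxa-/- and 5 of 9 in the Hoxa-/-d+/- vas deferens, with medians of -1.27 and -1.08 and 1 higher in each. In the uterus 3 of 8 rose in each mutant, with medians of 0.64, 0.81, 0.33 and 0.47 in the Hoxa-/-, Hoxd-/-, Hoxa-/-d+/- and Hoxa+/-d-/- library. In the Hoxa-/- uterus 1 fell, Tubb3 at -2.06, and in the Hoxa-/-d+/- uterus 1 fell, at -1.37. In the oviduct 4 of 8 rose, with a median of 1.45 and the glial gene S100b at 7.45, and in the epididymis 5 of 9 fell and 1 rose, with a median of -1.48. The Schwann cell regulator Sox10 was at 2.24 in the Hoxd-/- uterus, where Lrrn4 and Gpm6a were at 0.71 and 0.65. Simple epithelium had medians from -0.25 to 0.59 in the 8 mutant libraries and stroma from -0.02 to 0.61. Of 10 stroma genes, 2 rose and 1 fell in the Hoxa-/- uterus, 4 rose and 1 fell in the Hoxa-/-d+/-, 3 rose in the Hoxd-/- and 0 rose or fell in the Hoxa+/-d-/- uterus. Of 8 ovary genes, 3 rose in the Hoxa-/-, 2 in the Hoxd-/-, 1 in the Hoxa-/-d+/- and 2 in the Hoxa+/-d-/- uterus, and 0 fell, with medians of 0.70, 0.36, -0.05 and 0.73. Cyp11a1 was at 3.27, 0.93, 1.77 and 6.34 in that order of uteri, while 5 of the 8 ovary genes lay below WT in the Hoxa-/-d+/- uterus, where the median of the 7 mesothelium genes was highest among the mutants. Endothelial medians were between -0.45 and 0.41, and skeletal muscle medians between -1.66 and 1.49, over the same 8 libraries.

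**Figure D3:**
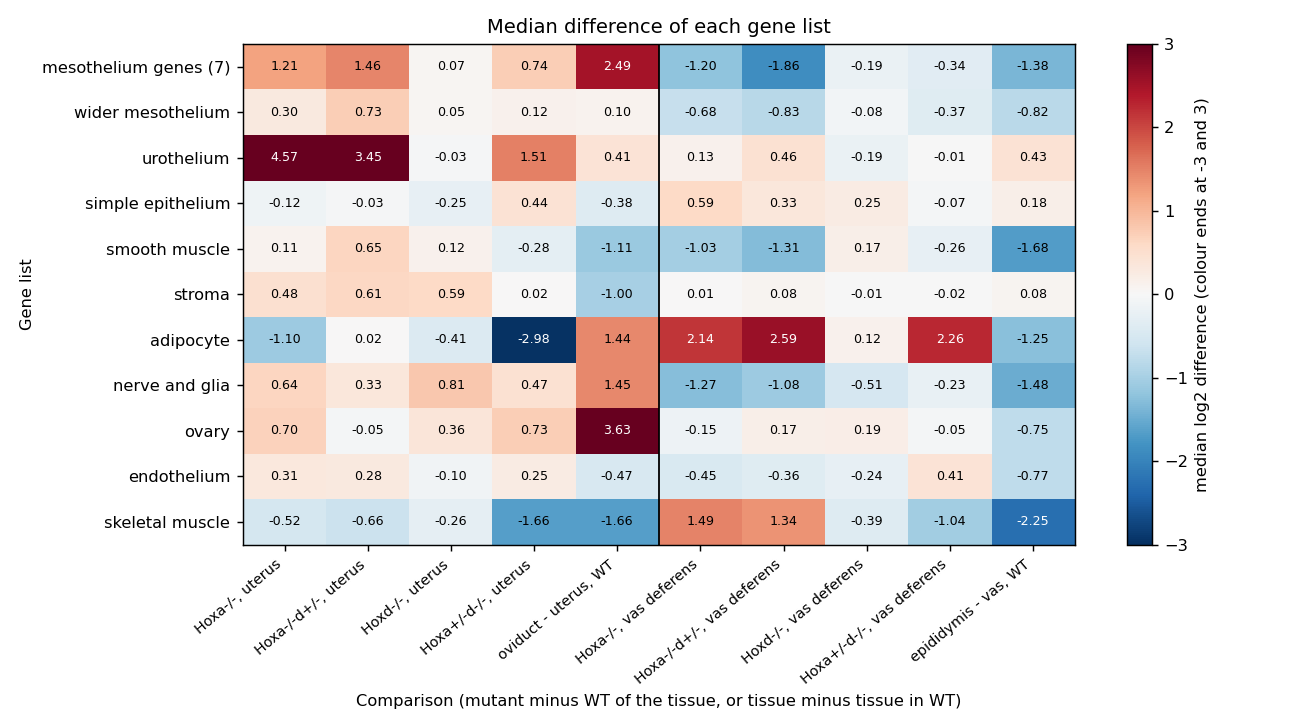
Each cell gives the median log2 difference of a gene list (rows) in a comparison (columns), mutant minus WT for each tissue or tissue minus tissue in WT, with red for higher and blue for lower. Among the mutants the 7 mesothelium genes run from 1.46 in the Hoxa-/-d+/- uterus to -1.86 in the Hoxa-/-d+/- vas deferens, where the adipocyte list stands at 0.02 and 2.59.

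Sequencing lanes followed the genotypes only in part, and comparisons within a lane were added after seeing the data. Lane 1 of run 134 held the WT and the Hoxa-/- uterus, so their difference, with 4 of 7 called higher, lies within a lane. Lane 2 held the Hoxd-/-, Hoxa-/-d+/- and Hoxa+/-d-/- uterus, so in their differences from WT lane and genotype cannot be told apart. In this lane 5 of the 7 genes were higher in the Hoxa-/-d+/- than in the Hoxd-/- uterus, beside 9.76% of all genes. Lrrn4 was at 2.26, Upk3b at 2.03, Muc16 at 1.95, Upk1b at 1.58 and Gpm6a at 1.22. Every mutant vas deferens was in another lane than the WT. Within lane 2, 3 of the 7 genes were lower in the Hoxa-/- than in the Hoxd-/- vas deferens, beside 8.1% of all genes, namely Msln at -1.55, Lrrn4 at -1.27 and Gpm6a at -1.17. Muc16, at -0.80 there, was called lower against WT but not against the Hoxd-/- library. In the same lane 6 of the 7 were lower in the Hoxa-/-d+/- than in the Hoxd-/- vas deferens, beside 6.9% of all genes, with a median of -1.47.

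The read numbers behind these values set their precision. Reads were counted in fractions, so the values of a gene fix only the smallest read numbers that fit them, and intervals from those numbers (exact, 95%) cover counting error only and are the widest the values allow. Of the genes whose reads could be read, Muc16 had the fewest, at least 22.74 reads in the WT, 14.9 in the Hoxd-/- and 85.24 in the Hoxa-/- uterus, and at least 73.71 in the WT and 15 in the Hoxa-/-d+/- vas deferens. Its difference in the Hoxd-/- uterus, -0.49, had an interval of -1.53 to 0.51, and that in the Hoxa-/- uterus, 1.69, one of 0.99 to 2.40. For Muc16 in the Hoxa-/- vas deferens, at -1.66, the interval ran from -2.48 to -0.89. Lrrn4 rested on at least 42.64 reads in the WT and 366.42 in the Hoxa-/-d+/- uterus, and its difference of 2.97 had an interval of 2.50 to 3.45. For Gpm6a in the Hoxa-/-d+/- vas deferens, with at least 652.76 reads in the WT, -1.98 had an interval of -2.26 to -1.71, and for Msln in the Hoxa-/- vas deferens -1.87 had one of -2.23 to -1.50. Wt1 in that library, at -0.90, had an interval of -1.26 to -0.53, which spans the call. Some called differences had intervals that span it too, among them both of Muc16 in the Hoxa-/- genotype. In the Hoxa-/-d+/- genotype these were Upk1b (0.88 to 1.69) and Muc16 (0.76 to 2.20) in the uterus and Wt1 (-1.74 to -0.94) in the vas deferens. Both calls between compound and single genotypes did so, Lrrn4 in the uterus (0.79 to 1.31) and Msln in the vas deferens (-1.78 to -0.94). Read numbers could not be read for the female values of Msln, Upk3b, Wt1 and Gpm6a and the male values of Upk3b and Lrrn4.

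The 7 genes differed in how closely they followed their own mean profile over the 12 libraries, which includes each of them. Pearson's r was 0.968 for Upk3b, 0.960 for Lrrn4, 0.954 for Gpm6a, 0.946 for Muc16, 0.899 for Msln, 0.806 for Upk1b and 0.644 for Wt1. Upk1b followed it over the 6 female libraries, with r of 0.982, and not over the 6 male ones, with r of 0.332, whereas Wt1 had a female r of 0.433 and a male r of 0.922. These values describe libraries that share the WT, lanes and depth, and carry no test.

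Of 15900 genes ranked by r to the mean profile, 40 reached 0.9. The 12 named genes outside the set with the highest r were Tmem151a at 0.975, Bnc1 at 0.974, Foxo6, a forkhead factor gene, at 0.970, Cldn15 at 0.967, the receptor gene Gpr146 at 0.961, Pcyt1a, which encodes an enzyme of phosphatidylcholine synthesis, at 0.958, the tyrosine kinase gene Tec at 0.958, the sulfotransferase gene Chst4 at 0.941, Crebl2 at 0.938, the non-coding imprinted gene Peg13 at 0.933, Pcnxl2 at 0.933 and Ppp1r14d at 0.933. They shared the shape of the profile more than its size. In the Hoxa-/-d+/- vas deferens Chst4 was at -2.29 and Tmem151a at -2.07, while Peg13 was at -0.45 and Crebl2 at -0.60. In the Hoxa-/-d+/- uterus the 12 ranged from 0.54 for Tec to 2.85 for Chst4. Bnc1 and Cldn15 were also on the wider mesothelium list, and Chst4 was the 1 of the 12 that rose in the Hoxd-/- uterus, at 1.32.

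**Figure D4:**
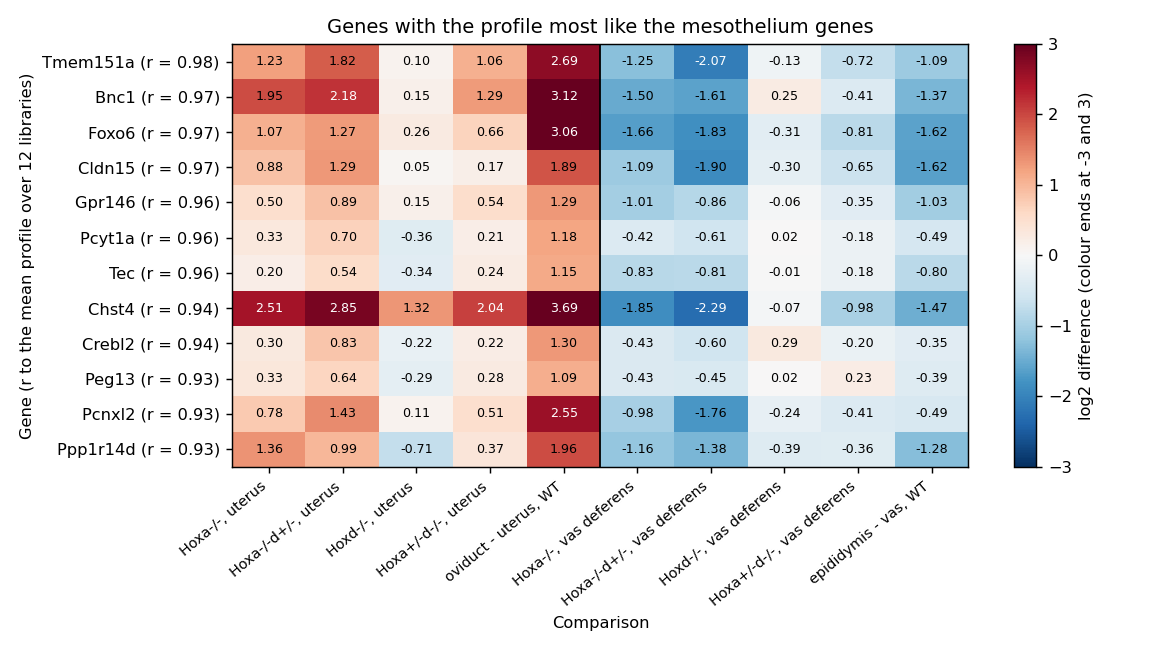
Rows are the 12 genes with the highest Pearson r to the mean profile of the 7 genes over 12 libraries, columns are the comparisons, and each cell is a log2 difference. Tmem151a runs from 1.82 in the Hoxa-/-d+/- uterus to -2.07 in the Hoxa-/-d+/- vas deferens, and Peg13 from 0.64 to -0.45.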

How the data were processed

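Total RNA from 12 mouse tissue pools was made into Illumina TruSeq libraries, per the labels' protocols, and TopHat and mm9 are named in the submitters' processing notes; the sources used here do not name a counting tool, an annotation or a scaling method. The deposited values are log2 values, centred by the authors on each gene's median within each sex, as the values show, so only differences within a sex were used. Each library was shifted by its median, by at most 0.00626. A gene with a library at the floor counted as measured if its highest library reached 20 normalised reads. For other genes the smallest fitting number of 0.01-read steps, normalised, had to reach 20 in the highest library, a looser limit. Varying genes whose level could not be read all counted. Read numbers were derived from steps of 0.01 read, which fit 89.4% (female) and 89.1% (male) of the values of genes with a library at the floor. Libraries were grouped by tissue and genotype. Calls need 2-fold. With 1 library per group no test was made. The 7 genes, the lists and the motifs were chosen with earlier results of these data known. Named were the 7 genes, the wider list, up to 3 genes per other list and the 12 most alike. Alternatives were thresholds, shifts, minimum levels, other references and, added later, lanes. Steps were tested on simulated data. Python 3.11.15, numpy 2.4.6, pandas 2.3.3, scipy 1.17.1 and matplotlib 3.10.9 were used.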

Additional observations from a re-analysis of the deposited data

Results flagged for a closer look

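Some genes moved by at least 2-fold up in the uterus and at least 2-fold down in the vas deferens of the same genotype, with 1 library on each side, and the difference between the tissues was not tested. The genes of the set were chosen for it. In the Hoxa-/- genotype, uterus and vas deferens differences from WT were 1.92 and -1.20 for Lrrn4, 1.69 and -1.66 for Muc16 and 1.21 and -1.27 for Gpm6a. In the Hoxa-/-d+/- genotype they were 2.22 and -1.63 for Upk3b, 2.97 and -1.86 for Lrrn4, 1.46 and -1.97 for Muc16 and 1.87 and -1.98 for Gpm6a.

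On the wider mesothelium list the same was found in the Hoxa-/- genotype for Bnc1 at 1.95 and -1.50 and Nkain4 at 1.21 and -1.17, and in the Hoxa-/-d+/- genotype for Bnc1 at 2.18 and -1.61, Nkain4 at 1.95 and -1.81 and Cldn15 at 1.29 and -1.90. Among the genes most like the mean profile, Tmem151a stood at 1.23 and -1.25, Foxo6 at 1.07 and -1.66, Chst4 at 2.51 and -1.85 and Ppp1r14d at 1.36 and -1.16 in the Hoxa-/- genotype. Tmem151a stood at 1.82 and -2.07, Foxo6 at 1.27 and -1.83, Chst4 at 2.85 and -2.29 and Pcnxl2 at 1.43 and -1.76 in the Hoxa-/-d+/- genotype.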

How the results depend on the processing

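No paired analysis was possible because each group has 1 library. Over the 4 mutants the 7 genes gave 28 differences per tissue, of which 11 were called higher and 0 lower in the uterus, and 11 lower and 0 higher in the vas deferens. The 28 differences of a tissue share 1 WT library and are not independent, and the shares of all genes at 2-fold stand with each mutant above. No share of all genes is given for 1.5-fold, for 4-fold or for the mean used as reference below. Those counts thus describe the listed genes alone. At 1.5-fold 17 were higher in the uterus. At 4-fold 2 were higher in the uterus and 0 lower in the vas deferens, the compound steps gave 0 in either tissue in place of 1, the epididymis 0 lower in place of 4, and the wider list 1 higher and 3 lower in the uterus (11 and 5 at 2-fold) and 1 lower in the vas deferens (14 at 2-fold). Another reference was the mean of the tissue's libraries with at most 1 mutant copy of the cluster null in the genotype. With it, 8 were higher and 2 lower in the uterus, and 10 lower and 2 higher in the vas deferens. For the Hoxd genotypes that reference holds the Hoxa-/- and Hoxa-/-d+/- libraries beside WT. With it, 21 of 56 differences changed sign, 20 of them in the 28 of the Hoxd genotypes. Of these, 4 were called under at least 1 reference: Upk3b in the Hoxd-/- and Hoxa+/-d-/- uterus, at -1.06 and -0.11, Lrrn4 in the Hoxa+/-d-/- uterus, at -0.013, and Muc16 in the Hoxa+/-d-/- vas deferens, at 1.04. Of the calls against WT, Gpm6a in the Hoxa-/- uterus (0.70) and Msln in the Hoxa+/-d-/- vas deferens (-0.41), the 1 call in that library, ended. The direction of the Hoxd genotypes thus differed between WT and this mean as reference. A mean without the heterozygous libraries was not tried. Unshifted values, no minimum and a minimum of 50 reads left all 56 differences on their side of the call, and a shift over all measured genes moved 1 across it, Upk3b in the Hoxa-/- vas deferens. Against the Hoxd-/- library of the same lane 20 of 21 kept their side of the call and 2 changed sign. These 2 were Upk1b in the Hoxa-/- and Hoxa-/-d+/- vas deferens, at 0.19 and 0.45. Among the genes with readable reads, depth limits Muc16 most.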
